A study of Mus musculus with 47 samples.

Results

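The subunits of the mitochondrial oxidative phosphorylation complexes were examined in mouse small intestine, separated into crypts and villi. The members were the probe sets whose single gene symbol begins with Ndufa, Ndufb, Ndufc, Ndufs, Ndufv, Uqcr, Cox4 to Cox8 or Atp5, or is Sdha, Sdhb, Sdhc or Sdhd, without the assembly factors named Ndufaf and without pseudogenes. The rule found 169 of 45037 probe sets, and these stand for 82 of the 18193 genes with a symbol of their own on the array. They comprise 36 genes of complex I, 4 of complex II, 8 of complex III, 17 of complex IV and 17 of ATP synthase. All 36, 4, 8 and 17 genes of complexes I, II, III and ATP synthase had a value on at least 3 arrays, and so did 14 of the 17 of complex IV, which makes 79 genes. Of these, 73 had a value on all 47 arrays, a share of 92.4% beside 37.5% of all 13554 genes that met the same requirement.

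Complexes I to IV sit in the inner mitochondrial membrane and form the respiratory chain. Complex I takes electrons from NADH and complex II from succinate, complex III passes them to cytochrome c, and complex IV hands them to oxygen. Complexes I, III and IV pump protons as electrons pass, and ATP synthase lets the protons flow back through its ring of c subunits to make ATP. All genes described here lie in the nucleus, and the mitochondrial genome encodes the remaining subunits. In the small intestine, stem cells, dividing progenitors and Paneth cells occupy the crypts, and mostly absorptive enterocytes cover the villi.

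Total RNA of C57BL/6 mice was measured on an Affymetrix array that reads the 3′ ends of transcripts, with 1 array per sample. Mice of a genetic arm were 3 months old and had eaten the purified diet Ain76A. They were wild type, Apc1638N/+ (heterozygous for a mutant allele of the tumour suppressor Apc) or p21-/- (without the cell-cycle inhibitor encoded by Cdkn1a). Mice of a diet arm were wild type with a labelled age of 1 year and ate Ain76A, NWD1 or NWD2 after weaning. Each of the 12 groups of 1 tissue and 1 genotype or diet held 4 arrays, with the exception of NWD2 villi, which held 3. The labels do not say that arrays of a group came from separate animals, so p-values measure the spread between these samples, which may be technical. Levels below are log2 values after quantile normalization of the arrays, and a difference of 1 is a 2-fold change. Differences are given ± SE from limma, with Benjamini-Hochberg adjusted p-values over all genes tested in that comparison, and "called" means that this value was below 0.05.

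The tissue labels were set against marker genes. Genes of dividing cells were called higher in crypts for 10 of 11 tested in wild type and 13 of 13 on Ain76A at 1 year. Of 13 enterocyte genes, 4 were called higher in villi and 1 in crypts in wild type, against 13 in villi and 0 in crypts on Ain76A. The listed enterocyte gene Sis was matched by name to Pdgfb, which is not an enterocyte gene, and is itself missing. Pdgfb could not be tested in wild type, but it enters the enterocyte sums below where it had a value. The mean level of the 13 enterocyte genes measured on every array was 14.72 and 14.47 on wild-type crypt arrays 2 and 4, and 13.15 and 14.10 on arrays 1 and 3. Several total counts and the called interactions that use this group are therefore also given without arrays 2 and 4. Counts by complex, most single genes and the lists are given only with them. On NWD2 the enterocyte mean was 14.12, 14.65, 14.87 and 14.50 in crypts and 14.98, 15.51 and 15.40 in villi. In NWD2 villi, 7 genes of dividing cells averaged 10.21 on array 1 and 8.42 and 8.56 on arrays 2 and 3. In villi, the summed level of 11 lymphocyte genes was 15.68 to 17.55 in the 3 groups of the genetic arm and 12.83 to 15.20 in the diet arm, against 11.04 to 15.06 in crypts. Of the Cdkn1a probe sets, one had no value on 8 of 8 p21-/- arrays and had a value on 39 of 39 others. The other had a value on every array, at 11.24 to 13.39 in p21-/- tissue and 11.43 to 12.98 in wild type. The sources used here do not say whether it lies outside the deleted part.

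The genes for the c subunit of ATP synthase are given first. Atp5g1, Atp5g2 and Atp5g3 encode precursors that are trimmed to the same mature c subunit, so they are alternative sources of the same protein. The 250 bases before the start of each gene are shown because the genes share a product and were called in 2, 6 and 0 of the 6 conditions, respectively. The sequences are those of RefSeq for build GRCm38.p6, each on the minus strand of chr11:96075632-96075881 for Atp5g1, chr15:102671048-102671297 for Atp5g2 and chr2:73911327-73911576 for Atp5g3, read 5′ to 3′. Capitals mark the CCAAT box, the E-box CACGTG, the NRF1-like motif CGCATGCG and the ERR-like motif TCAAGGTCA, each searched on both strands. The motifs AAGATGGCG (YY1-like), CCGGAAG (ETS-like) and GGGCGGG (Sp1-like) were searched as well and have no match in the windows shown.
Atp5g1: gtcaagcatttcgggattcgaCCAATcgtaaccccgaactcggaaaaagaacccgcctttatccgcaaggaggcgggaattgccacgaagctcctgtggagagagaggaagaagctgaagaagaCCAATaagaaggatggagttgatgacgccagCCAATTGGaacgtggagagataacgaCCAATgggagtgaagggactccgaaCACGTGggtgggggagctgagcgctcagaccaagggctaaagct
Atp5g2: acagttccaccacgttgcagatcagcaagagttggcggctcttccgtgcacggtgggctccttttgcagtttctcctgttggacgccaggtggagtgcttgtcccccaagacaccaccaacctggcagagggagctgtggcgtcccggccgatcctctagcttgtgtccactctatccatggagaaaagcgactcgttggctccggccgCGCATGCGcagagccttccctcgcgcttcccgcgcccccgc
Atp5g3: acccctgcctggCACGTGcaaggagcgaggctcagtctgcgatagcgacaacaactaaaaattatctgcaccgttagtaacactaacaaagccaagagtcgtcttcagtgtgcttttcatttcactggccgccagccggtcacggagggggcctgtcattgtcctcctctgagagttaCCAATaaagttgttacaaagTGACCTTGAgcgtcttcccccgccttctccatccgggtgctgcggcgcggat
The window before Atp5g1 holds 5 CCAAT matches, 2 of which overlap on opposite strands, and an E-box. That of Atp5g2 holds only the NRF1-like match, which ends 33 bases before the start. That of Atp5g3 holds an E-box, a CCAAT match and an ERR-like match. NRF1 and the estrogen-related receptors are known as regulators of respiratory genes, but a match is no evidence of binding here.

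Over windows from 250 bases before to 50 after the start, 67 of the 82 subunit genes and 27025 genes in all had a RefSeq sequence. CGCATGCG was found in 8 subunit windows (11.9%) beside 2.07% of all windows. TCAAGGTCA was found in 2 (2.99%) beside 0.466%, AAGATGGCG (YY1-like) in 6 (8.96%) beside 1.64%, and CCGGAAG (ETS-like) in 17 (25.4%) beside 9.93%. The shares were near those of all windows for CACGTG with 6 (8.96% beside 8.09%) and for CCAAT with 28 (41.8% beside 41.1%). GGGCGGG (Sp1-like) was found in 24 (35.8%) beside 27.9%. These shares describe letters in the windows and were not tested.

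Atp5g2 was higher in crypts in all 6 conditions and was the only subunit gene called in all 6, beside 6.46% of the 6348 genes that could be tested in every condition. On Ain76A at 1 year its level was 13.68, 13.99, 13.73 and 13.50 in crypts and 12.17, 11.98, 12.32 and 12.14 in villi. The arrays did not overlap, and the difference was 1.58 ± 0.24 (adjusted p = 6.22e-07). In wild type at 3 months it was 13.77, 12.71, 13.44 and 12.65 in crypts and 11.89, 12.31, 11.74 and 12.36 in villi. The groups again did not overlap, with crypt arrays 2 and 4 nearest to the villi, and the difference was 1.07 ± 0.24 (adjusted p = 0.000379). The difference was 1.25 on NWD1 (adjusted p = 6.04e-05), 1.03 in p21-/- (0.000572), 1.02 on NWD2 (0.00745) and 0.76 in Apc1638N/+ (0.0104). The call in Apc1638N/+ was lost without crypt array 3 or villus array 4 of that group, and the call on NWD2 without villus array 2 or 3, where the adjusted p reached 0.12.

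Atp5g1 was also higher in crypts in all 6 conditions, by 0.32 to 0.78, but was called in 2 of them. These were Ain76A (0.78 ± 0.27, adjusted p = 0.0148) and NWD1 (0.70, adjusted p = 0.0355). Its crypt levels on Ain76A were 13.24, 13.57, 13.44 and 13.47, above villus levels of 12.49, 12.43, 13.00 and 12.66. Atp5g3 gave no call in any condition, with differences from -0.10 to 0.22 and a mean of 0.01. On Ain76A it read 15.15, 15.33, 15.14 and 15.28 in crypts and 15.41, 15.28, 15.23 and 15.38 in villi, so its groups overlapped. Over the 6 conditions the mean difference was thus 1.12 for Atp5g2, 0.57 for Atp5g1 and 0.01 for Atp5g3. Their mean levels over the arrays were 12.85, 12.88 and 15.34 in the same order. The differences between these genes, and any part of their unlike levels in them, were not tested.

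**Figure D1:**
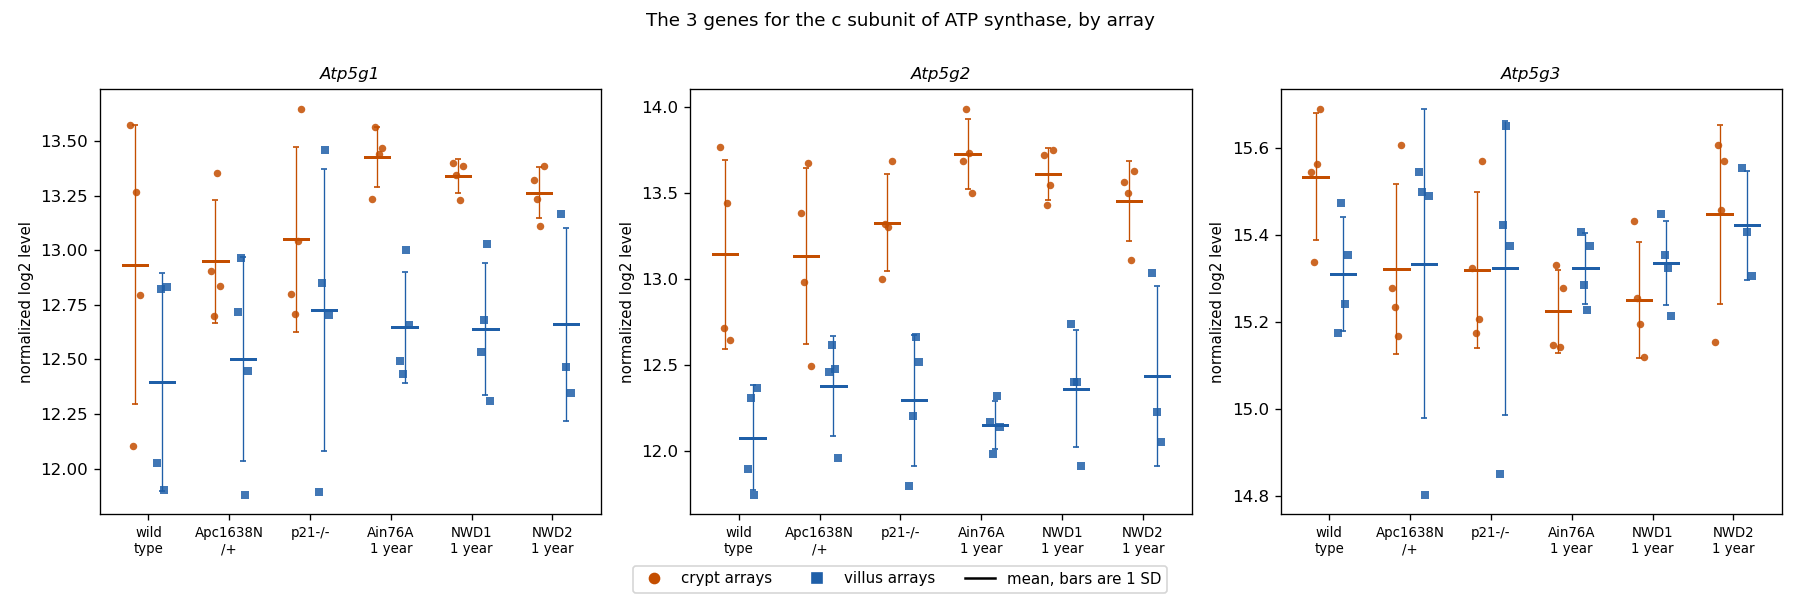
Normalized log2 level (vertical axis) of Atp5g1, Atp5g2 and Atp5g3 in each array of the 6 conditions (horizontal axis), with crypts in orange, villi in blue, and lines and bars for the mean and 1 SD of a group. Atp5g2 crypt means lie above villus means in every condition, by 0.76 to 1.58, whereas the mean crypt-villus difference of Atp5g3 is 0.01.

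Across the whole set, more subunit genes were called higher in crypts than in villi in each condition, and in all but NWD2 complex I supplied most of them. In wild type at 3 months, 26 of 73 subunit genes tested were called higher in crypts and 0 in villi, beside 20.4% and 26% of all genes tested. The median difference of the subunit genes was 0.30, beside -0.12 over all genes. In Apc1638N/+ mice 12 passed with the higher level in crypts and 3 with the higher level in villi (all genes 21.1% and 20.5%), and in p21-/- mice 15 and 5 (23.7% and 22.4%), again of 73. At 1 year the numbers were 18 and 4 of 75 on Ain76A (26.8% and 25.8%), 21 and 2 of 74 on NWD1 (22% and 19.9%), and 2 and 0 of 74 on NWD2 (7.63% and 4.91%). The share of subunit genes higher in crypts was thus above that of all genes in wild type and on NWD1 and below it in the other 4 conditions, and the share higher in villi was below that of all genes in every condition. With only the compared groups in the model the total called in both directions was 15 in wild type, 1 in Apc1638N/+, 8 in p21-/-, 34 on Ain76A and 36 on NWD1. The crypt share was then also above that of all genes on Ain76A (34.7% beside 32%). In the main model, medians of the subunit genes were 0.16 in Apc1638N/+, 0.09 in p21-/-, 0.12 on Ain76A, 0.25 on NWD1 and 0.19 on NWD2. The median of all genes lay between -0.04 and 0.01 in these 5 conditions.

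The count in wild type was 20 in crypts and 3 in villi of 74 without crypt arrays 2 and 4, and 16 and 1 without villus array 1. That on NWD2 was 12 and 0 without villus array 1, and 0 without villus array 2 or 3. Shares of all genes are not given for fits that leave out arrays, here or below. Such counts therefore do not show whether the subunit genes moved apart from other genes. The balance of directions moved with scaling. With arrays centred on their median the counts in crypts and villi were 28 and 0 in wild type (all genes 19.7% and 24.6%), 20 and 0 in Apc1638N/+ (21.2% and 17.7%), 28 and 1 in p21-/- (27.5% and 18.7%), 21 and 3 on Ain76A (33.2% and 23.3%) and 14 and 2 on NWD1 (27% and 18.1%). The crypt share of the subunit genes was then above that of all genes in Apc1638N/+ (27.4%) and p21-/- (38.4%) and below it on NWD1 (18.9%), each the other way round from the main scaling. With the deposited scaling the counts were 34 and 0 (24.5% and 19.4%), 13 and 0 (18.9% and 19.4%), 14 and 1 (19.7% and 24.6%), 9 and 4 (29.6% and 26.3%), and 6 and 2 (23.9% and 20.2%). There the crypt share was above that of all genes in wild type only, and on NWD1 it was 8.11%. The villus share stayed below that of all genes in these conditions under both scalings. Centring placed the median of all genes at 0.13 in p21-/-, 0.17 on Ain76A and 0.14 on NWD1, and the deposited scaling placed it at 0.04 in wild type.

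Between conditions, 34 of 73 subunit genes had a positive crypt-minus-villus difference in all 6, and 7 a negative one, beside 29% and 30.5% of all 6348 genes. A call in crypts in at least 4 conditions was reached by 9 subunit genes (all genes 17.3%), and a call in villi in at least 4 by 1 (all genes 15.7%). As a set, the median level of these 73 genes on an array averaged 13.36 to 13.59 over the 6 crypt groups and 13.14 to 13.30 over the 6 villus groups, with a pooled SD of 0.21 between arrays of a group. In wild type it was 13.48 ± 0.03 (SD, n = 4) in crypts and 13.15 ± 0.31 (n = 4) in villi, and on Ain76A at 1 year 13.58 ± 0.08 and 13.25 ± 0.09 (n = 4 each). Fewer cells of a type and less RNA per cell cannot be told apart in such bulk samples.

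**Figure D2:**
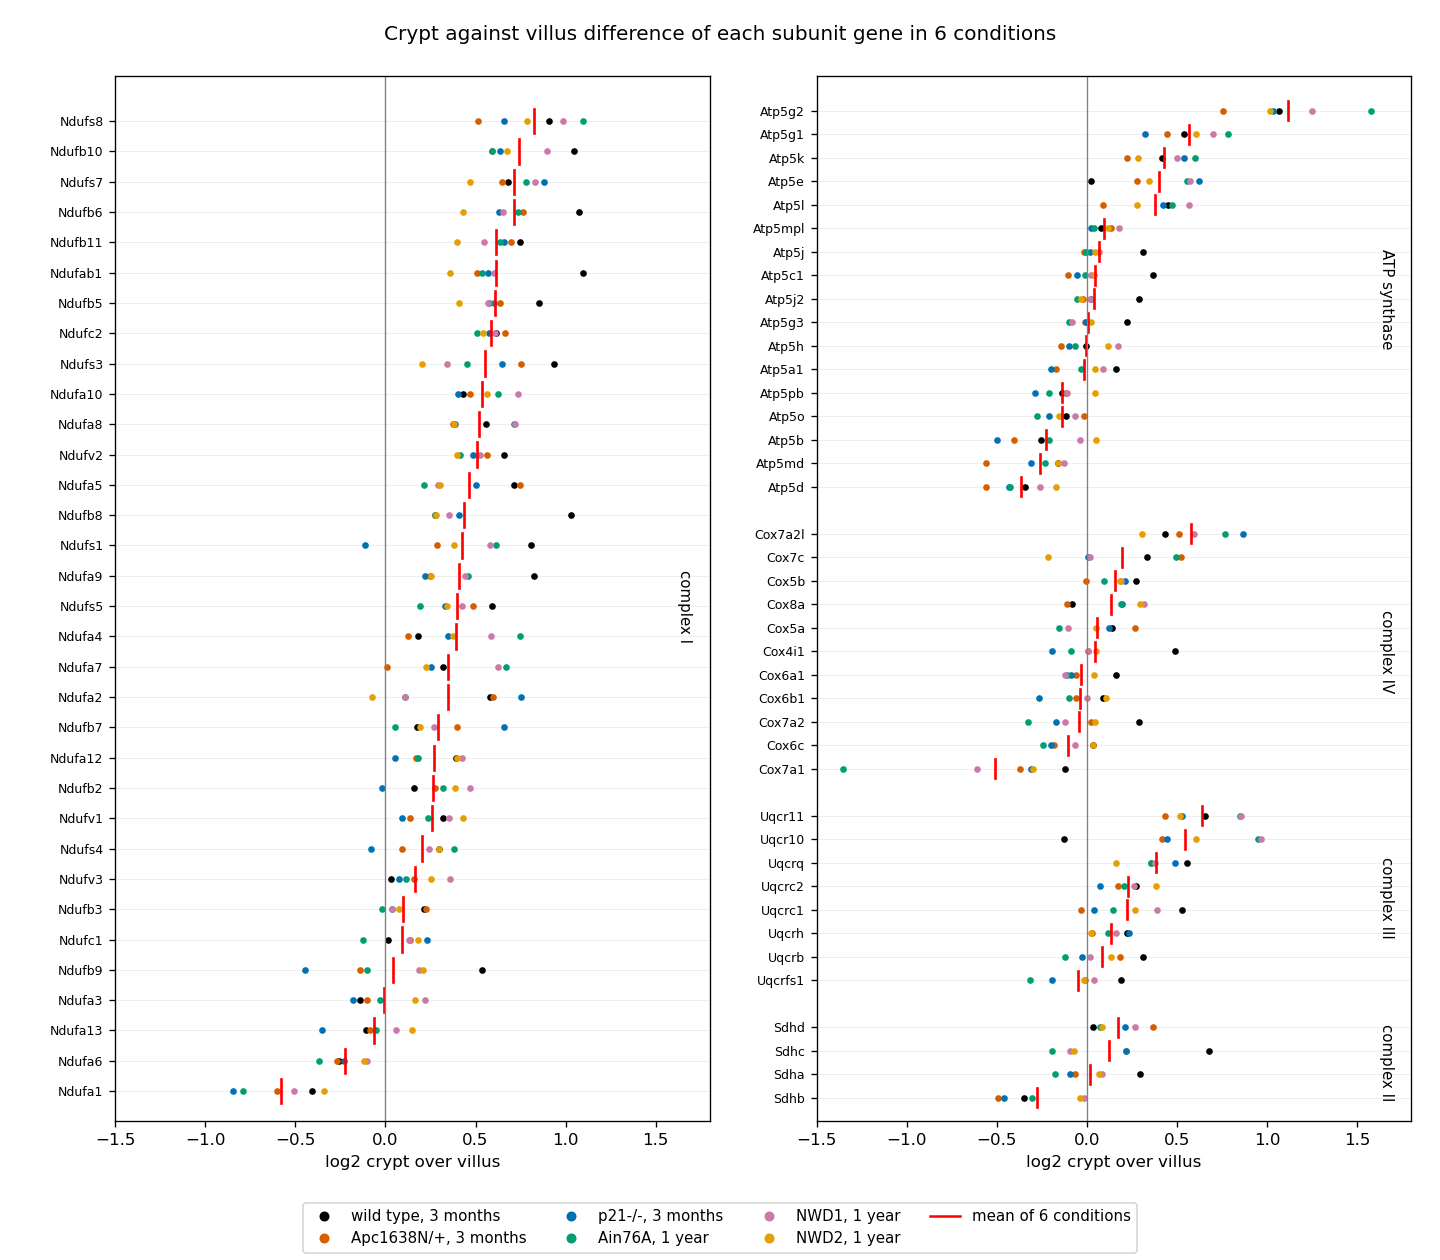
Crypt-minus-villus log2 difference (horizontal axis) of each of the 73 subunit genes tested in all 6 conditions, with genes as rows grouped by complex, a coloured point per condition and a red line at their mean. Of the 33 complex I genes 22 have all 6 points to the right of 0, and the means run from -0.58 for Ndufa1 to 0.82 for Ndufs8.

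Complex I had the largest share of genes called higher in crypts of the complexes in every condition but NWD2. Of 33 genes tested in each condition, 19 were called higher in crypts in wild type, 10 in Apc1638N/+, 10 in p21-/-, 11 on Ain76A, 13 on NWD1 and 1 on NWD2. Called higher in villi were 0, 1, 2, 1, 1 and 0. The median difference was 0.56, 0.29, 0.35, 0.38, 0.43 and 0.34 in that order. Over the 6 conditions, 22 of the 33 genes had a positive difference throughout and 2 a negative one. On NWD2, 2 of 13 enterocyte genes were called higher in villi and 13 of 14 genes of dividing cells in crypts. The part of cell composition in the low NWD2 count was not tested.

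Ndufs8, a core subunit that binds iron-sulfur clusters in the arm that carries electrons to ubiquinone, had the largest mean difference of complex I with 0.82. Its Ain76A levels at 1 year were 14.00, 14.07, 14.12 and 14.16 in crypts and 12.83, 12.66, 13.37 and 13.11 in villi. The difference was 1.10 ± 0.22 (adjusted p = 4.28e-05). In wild type crypts read 13.43, 13.63, 13.84 and 13.79 and villi 12.31, 12.83, 12.52 and 13.39, and no villus array reached the lowest crypt array. The difference there was 0.91 ± 0.22 (adjusted p = 0.000699). It was called also on NWD1 (0.99, adjusted p = 0.000317), in p21-/- (0.66, 0.0118) and on NWD2 (0.79 ± 0.23, 0.0211), but not in Apc1638N/+ (0.51). On NWD2 the call was lost without any of 4 of the 7 arrays. The other probe sets of Ndufs8 with a value on all 47 arrays gave differences of 0.38 to 1.09 in wild type and 1.03 to 1.24 on Ain76A. A further probe set had a value on only 2 arrays.

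Its neighbour in the same arm, the iron-sulfur subunit Ndufs7, was called higher in crypts in 5 conditions, by 0.65 to 0.88, and read 0.47 on NWD2 without a call. On Ain76A its crypts stood at 13.27, 13.33, 13.24 and 13.41 and its villi at 12.46, 12.28, 12.59 and 12.79. The accessory subunits Ndufb10, Ndufb6 and Ndufb11 were each called higher in crypts in 5 conditions, with means of 0.74, 0.71 and 0.61, and none of them passed on NWD2 (0.68, 0.43 and 0.40). Ndufb11 read 14.07, 14.06, 13.93 and 13.97 in Ain76A crypts and 13.40, 13.36, 13.35 and 13.36 in villi, a difference of 0.64 ± 0.17 (adjusted p = 0.00138). Ndufab1, the mitochondrial acyl carrier protein, differed most in wild type (1.10 ± 0.25, adjusted p = 0.000353), was called on NWD1 at 0.60, and lay between 0.36 and 0.57 elsewhere without a call.

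The core subunits did not all follow. Ndufs1, the largest iron-sulfur subunit, was called higher in crypts in wild type (0.81), on Ain76A (0.61) and on NWD1 (0.58), and read -0.11 in p21-/-. Ndufv1, which carries the NADH site, had differences of 0.09 to 0.43 and no call. Ndufa4, grouped here by its name although the protein is now assigned to complex IV, was called on Ain76A at 0.75 and read 0.12 to 0.59 elsewhere. On Ain76A, where crypt and villus arrays of equal number deviated together, its call was lost with the replicate block (adjusted p = 0.0587).

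Ndufa1, a small membrane-arm subunit encoded on the X chromosome, ran the other way. It stood at 14.07, 14.18, 14.02 and 14.05 in Ain76A crypts and at 14.85, 14.89, 14.85 and 14.90 in villi. The groups were tight and apart, and the difference was -0.79 ± 0.19 (adjusted p = 0.000244). In p21-/- mice crypts read 13.65, 13.66, 13.79 and 13.82 and villi 14.15, 14.76, 14.93 and 14.47, a difference of -0.84 (adjusted p = 0.000172). Calls were also reached in Apc1638N/+ (-0.60, 0.0057) and on NWD1 (-0.51, 0.019), but both of these were lost with arrays centred on their median and with the deposited scaling. In wild type it read -0.41 and on NWD2 -0.34 without a call. The 250 bases before Ndufs8 (chr19:3912775-3913024) and Ndufa1 (chrX:37191239-37191488), both on the minus strand of GRCm38.p6 from RefSeq, are shown to set the most crypt-high and the most villus-high gene of complex I side by side.
Ndufs8: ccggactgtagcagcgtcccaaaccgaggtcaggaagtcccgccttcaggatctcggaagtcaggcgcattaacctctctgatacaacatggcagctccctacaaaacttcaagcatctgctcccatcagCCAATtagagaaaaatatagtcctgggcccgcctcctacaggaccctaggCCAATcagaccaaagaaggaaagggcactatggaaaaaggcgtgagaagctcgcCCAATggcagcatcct
Ndufa1: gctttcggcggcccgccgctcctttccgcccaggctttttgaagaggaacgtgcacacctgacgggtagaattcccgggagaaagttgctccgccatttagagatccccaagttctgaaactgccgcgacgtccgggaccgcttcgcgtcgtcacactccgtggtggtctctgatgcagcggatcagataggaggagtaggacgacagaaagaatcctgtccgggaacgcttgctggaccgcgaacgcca
Capitals mark 3 CCAAT matches before Ndufs8, the nearest ending 11 bases before the start, and none of the motifs searched lies in the window of Ndufa1.

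**Figure D3:**
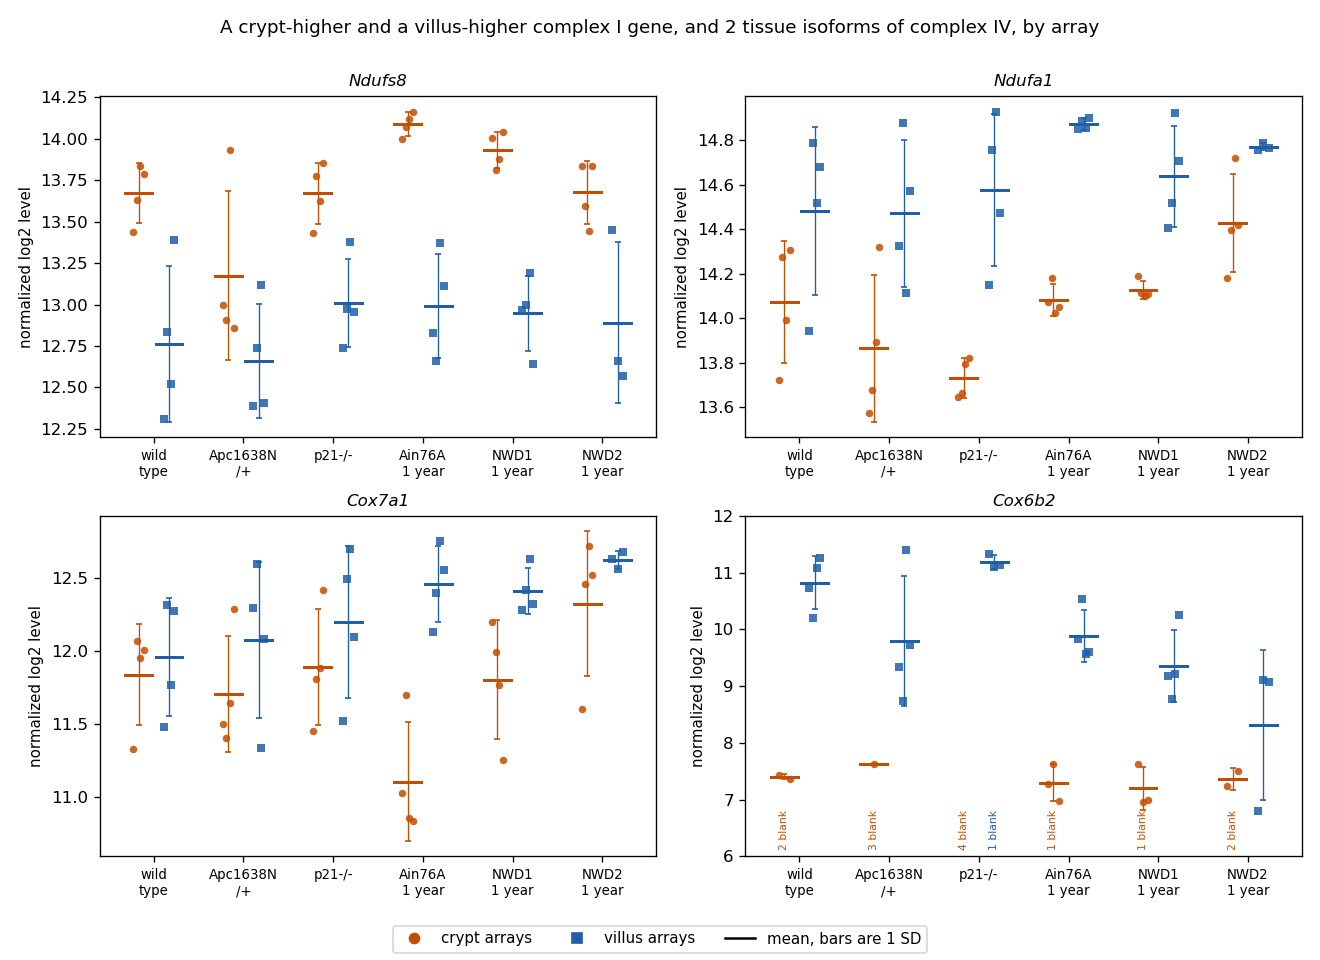
Normalized log2 level (vertical axis) of Ndufs8, Ndufa1, Cox7a1 and Cox6b2 in each array of the 6 conditions (horizontal axis), with crypts in orange, villi in blue, lines and bars for the mean and 1 SD, and counts of blank arrays for Cox6b2. Ndufs8 is higher in crypts and Ndufa1 in villi on Ain76A at 1 year without overlap, and Cox7a1 is lowest in the Ain76A crypts, at 10.84 to 11.70.

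Complex II, which also serves the tricarboxylic acid cycle as succinate dehydrogenase, showed no common direction among its 4 genes. Sdha, the catalytic flavoprotein, had a mean difference of 0.02, and Sdhd, a membrane anchor, had 0.17, with no call for either. Sdhb, the iron-sulfur subunit, was higher in villi in Apc1638N/+ (-0.50, adjusted p = 0.0235) and p21-/- (-0.46, adjusted p = 0.0311), and both calls were lost under the deposited scaling and with centred arrays. Sdhc, the other anchor, was higher in wild-type crypts, at 12.82, 12.86, 13.15 and 12.77 against 12.24, 12.21, 11.96 and 12.48 in villi. That difference was 0.68 ± 0.22 (adjusted p = 0.0103), while another probe set of Sdhc gave -0.47 (adjusted p = 0.0757). In the diet arm Sdhc differed by -0.19 to -0.07.

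In complex III, calls fell on the small subunits Uqcr10, Uqcr11 and Uqcrq. Uqcr11 was called higher in crypts in wild type (0.66), on Ain76A (0.85) and on NWD1 (0.86), and was positive in the other conditions at 0.43 to 0.53. Uqcr10 read 13.18, 13.41, 13.34 and 13.22 in Ain76A crypts and 12.26, 12.22, 12.46 and 12.41 in villi. The difference was 0.95 ± 0.21 (adjusted p = 0.000156), and it was 0.97 on NWD1 (adjusted p = 0.000228). Wild-type crypts read 13.56, 12.43, 13.43 and 13.12 beside villi at 12.96, 13.48, 13.32 and 13.27, which overlap, with a difference of -0.13. Uqcrq was called higher in crypts in wild type (0.55, adjusted p = 0.0202) and p21-/- (0.49, adjusted p = 0.0388), and read 0.16 to 0.38 elsewhere. The 2 other probe sets of Uqcr10 gave 0.05 and 0.57 on Ain76A, the latter with an adjusted p of 0.0356. The core subunit Uqcrc1 had a mean of 0.22 and Uqcrfs1, the Rieske iron-sulfur protein, -0.05, with no call in any condition. Over the 8 genes, calls in crypts numbered 2, 0, 1, 2, 2 and 0 in wild type, Apc1638N/+, p21-/-, Ain76A, NWD1 and NWD2, and none was called in villi.

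Complex IV and the rest of ATP synthase were centred near 0. For complex IV, 2 of 11 genes tested were called higher in crypts in wild type, and 1 in each of Apc1638N/+, p21-/-, Ain76A and NWD1. Medians of its genes lay between -0.11 and 0.16. The core-associated subunits Cox5a and Cox5b had mean differences of 0.05 and 0.16 and no call. Cox4i1, the regulatory subunit of most tissues, passed only in wild type, by 0.49 ± 0.18 (adjusted p = 0.024). The exception was Cox7a2l, grouped here by its name, which was called higher in crypts in 5 conditions. It stood at 12.67, 12.50, 12.44 and 12.36 in Ain76A crypts and 11.96, 11.71, 11.54 and 11.71 in villi, a difference of 0.76 ± 0.17 (adjusted p = 0.000251). The largest was 0.87 in p21-/- (adjusted p = 8.63e-05), and on NWD2 it read 0.30 without a call.

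Cox6b2 and Cox7a1 are isoforms known from other tissues, and both were called higher in villi on Ain76A at 1 year. Cox6b2, the testis form of Cox6b1, was measured on 22 of 23 villus arrays and on 11 of 24 crypt arrays, where it read 6.96 to 7.64. Its villi read 10.73, 10.21, 11.09 and 11.26 in wild type, 9.33, 8.73, 11.39 and 9.72 in Apc1638N/+, and 11.32, 11.10 and 11.14 with a blank in p21-/-. On Ain76A they read 9.82, 10.54, 9.56 and 9.59, on NWD1 9.17, 8.77, 9.21 and 10.26, and on NWD2 6.80, 9.10 and 9.07. Measured wild-type and p21-/- villi were thus at least at 10.21, and NWD2 villi at most at 9.10. Crypts and villi both had at least 3 measured arrays only on Ain76A and NWD1, where the differences were -2.58 ± 0.48 (adjusted p = 3.78e-05) and -2.15 ± 0.48 (adjusted p = 0.000568). The partner Cox6b1 differed by -0.10 and 0.00 in the same conditions. The lymphocyte sum in villi was 16.29 to 17.24 in wild type, 16.15 to 17.55 in Apc1638N/+ and 15.68 to 17.22 in p21-/-. It was 14.33 to 15.20 on Ain76A, 12.95 to 14.55 on NWD1 and 12.83 to 13.16 on NWD2. In p21-/- villi against wild type, Cox6b2 read 0.37 higher without a call, while 11 of 11 lymphocyte genes read lower with a median of -0.87 and no call. The part of lymphocyte RNA in the Cox6b2 levels was not tested.

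Cox7a1, the heart and skeletal muscle form of Cox7a2, was lower in crypts than in villi on Ain76A at 1 year. The crypts read 11.02, 11.70, 10.86 and 10.84 and the villi 12.13, 12.40, 12.75 and 12.56, with no overlap, and the difference was -1.35 ± 0.27 (adjusted p = 5.13e-05). It was -0.61 on NWD1, -0.37 in Apc1638N/+, -0.31 in p21-/-, -0.30 on NWD2 and -0.12 in wild type, none of them called. Cox7a2 differed by -0.33 on Ain76A without a call. Of 12 genes listed as markers of striated muscle, 4 are on the array and 1 could be tested on this diet, at -0.34 without a call, and the part of muscle RNA in Cox7a1 was not tested. Cox6a2 and Ndufa4l2 could not be tested between crypts and villi in any condition, and Cox8c, a testis form, read -0.16 on Ain76A and -0.18 on NWD2 without a call.

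Within ATP synthase, calls in crypts numbered 2, 1, 3, 4, 5 and 1 of 17 genes in wild type, Apc1638N/+, p21-/-, Ain76A, NWD1 and NWD2, and in villi 0, 1, 2, 1, 0 and 0. Beside Atp5g2 and Atp5g1, the small subunits Atp5e and Atp5k were called in 3 and 4 conditions, with mean differences of 0.40 and 0.43. The core subunits stayed near or below 0, with Atp5a1 at -0.02, Atp5c1 at 0.04 and Atp5b at -0.23 on average. Atp5b was called higher in villi in p21-/- (-0.50, adjusted p = 0.0172), but read 0.04 there with arrays centred on their median. Atp5d, the delta subunit of the rotor stalk, was called higher in villi in Apc1638N/+ (-0.56), p21-/- (-0.43) and on Ain76A (-0.42), and all these calls were lost with the deposited scaling and with centred arrays, where p21-/- read 0.12.

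**Figure D4:**
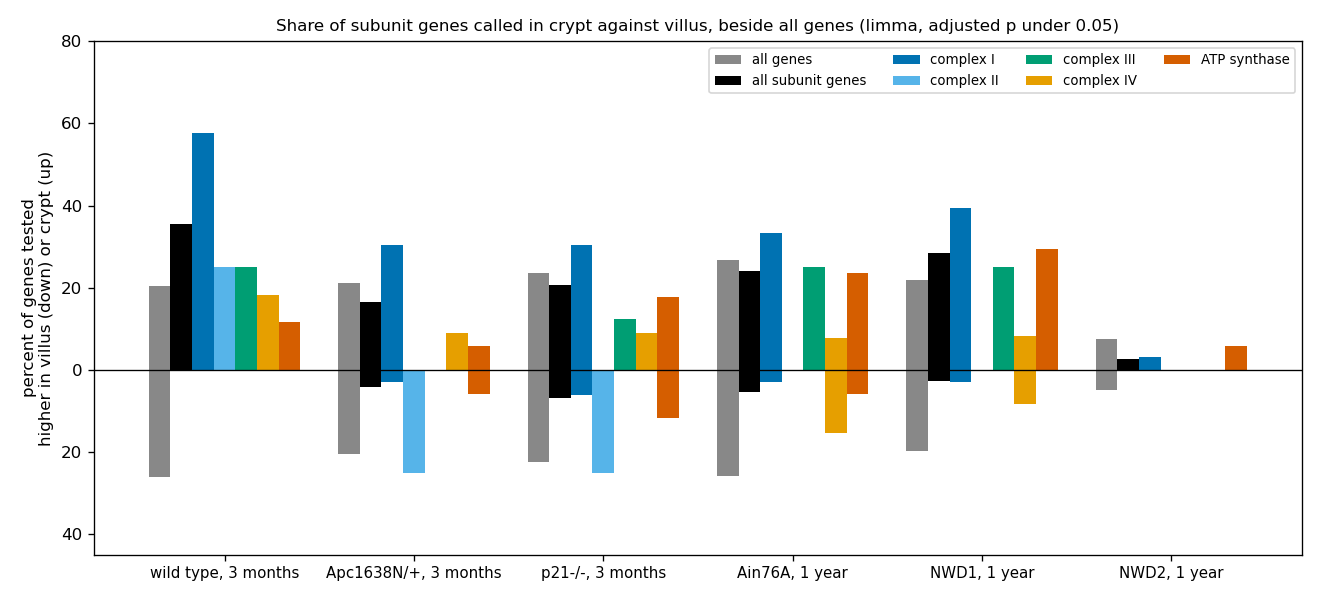
Percent of genes tested (vertical axis) that were called higher in crypts (upward bars) or villi (downward bars) in each of the 6 conditions (horizontal axis), for all genes, all subunit genes and each complex. Complex I has 19 of its 33 genes called in crypts in wild type, where 20.4% of all genes were, and 1 of 33 on NWD2.

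Other genes of mitochondrial energy metabolism were followed as lists, to be read against all genes, of which 20.4% were called in crypts and 26% in villi in wild type, and 26.8% and 25.8% on Ain76A. Mitochondrial ribosomal proteins, which translate the subunits encoded in the mitochondrion, were mostly higher in crypts. Called were 49 of 69 in wild type, 46 of 74 in Apc1638N/+, 49 of 74 in p21-/-, 65 of 74 on Ain76A, 68 of 76 on NWD1 and 30 of 75 on NWD2, with medians of 0.80, 0.75, 0.78, 1.20, 1.00 and 0.65. In villi 1 was called in Apc1638N/+ and none elsewhere. Examples on Ain76A are Mrpl41 at 1.99 and Mrps35 at 1.78. These medians lay above those of the subunit genes in each condition, and that difference was not tested.

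Assembly factors of the complexes were called higher in crypts for 19 of 41 in wild type and 24 of 45 on Ain76A, and in villi for 1 and 3. They include Lrpprc, which stabilizes mitochondrial messenger RNA (2.12 in wild type and 1.81 on Ain76A), and Cox20, a chaperone of complex IV assembly (0.99 and 1.41). Among regulators of mitochondrial biogenesis, 4 of 10 were called in crypts and 1 in villi in wild type, and 7 of 13 and 0 on Ain76A. The mitochondrial transcription factor Tfam read 1.70 and 1.69, and the mitochondrial RNA polymerase Polrmt 1.25 and 1.47. The regulator called in villi in wild type was Ppargc1a (-1.39, adjusted p = 0.0391). Of the 10 tested there, 7 were positive and 3 negative. Of 14 electron carrier genes, 8 were called in crypts and 2 in villi on Ain76A, among them the ubiquinone enzyme Coq2 at 1.97, while Cycs, cytochrome c itself, was lower in crypts by -0.64 ± 0.14 (adjusted p = 0.000138).

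Of the tricarboxylic acid cycle, 6 of 16 genes were called in crypts and 5 in villi on Ain76A, which is 37.5% and 31.2% beside 26.8% and 25.8% of all genes. Idh2 and Suclg2 were higher in crypts (1.96 and 1.17), and Ogdh and Cs, citrate synthase, in villi (-1.54 and -0.97). In wild type 7 of 16 were called in crypts and 2 in villi. Carriers and channels of mitochondria gave 7 and 5 of 18 on Ain76A and 5 and 4 of 18 in wild type. Of the list for glycolysis and lactate, 3 genes were called in crypts and 5 in villi of 15 on Ain76A. The latter include Tpi1 (-0.77) and Ldha (-0.67). In wild type 3 and 3 of 13 were called. This list includes Pigq, which is not a gene of glycolysis and was 1 of the 3 called in wild-type crypts (0.69, adjusted p = 0.000875).

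Few subunit genes differed between genotypes or diets. In Apc1638N/+ against wild-type crypts none of 73 was called, while 6 had an unadjusted p under 0.05, and 0.0257% and 0.0128% of all genes were called higher and lower. The smallest p among the subunits belonged to Ndufb9, a membrane-arm subunit of complex I, at -0.58 (adjusted p = 0.154). Without Apc1638N/+ crypt array 3, 6 subunit genes were called, all lower, and without wild-type crypt array 1, 2 were. The shares of all genes called in these fits are not given here. In Apc1638N/+ villi none of 74 was called and 1 had an unadjusted p under 0.05, Cox6b2 at -1.03 (all genes 0.0254% higher and 0% lower).

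In p21-/- crypts, 2 subunit genes were called higher and 1 lower than in wild type, of 73 tested, beside 3.41% and 1.75% of all genes. Atp5e, a subunit of the rotor stalk, read 12.73, 13.43, 13.53 and 13.41 in p21-/- crypts and 12.85, 12.50, 12.99 and 12.14 in wild type, which overlap, with a difference of 0.66 ± 0.19 (adjusted p = 0.0318). Ndufb7 was higher by 0.63 ± 0.19 (adjusted p = 0.0422). Ndufb9 was lower, at 13.22, 13.53, 13.74 and 13.74 against 13.88, 14.42, 14.07 and 14.32, and the difference was -0.61 ± 0.18 (adjusted p = 0.0368). No p21-/- array reached the lowest wild-type array for Ndufb9. None of these calls stood when p21-/- crypt array 2 or 3 or wild-type crypt array 4 was left out, and 1 gene was called without wild-type crypt arrays 2 and 4. Of the Paneth cell genes 3 of 7 were called higher in the same comparison, all 7 were positive and the median was 1.48, with summed levels of 17.51 to 17.91 in p21-/- and 16.19 to 17.47 in wild-type crypts. Of the lymphocyte genes 2 of 3 tested were called lower (sums of 11.04 to 12.94 and 12.89 to 15.06). Of the enterocyte genes 1 of 13 was called lower and 12 were negative (sums of 17.94 to 18.50 and 17.75 to 19.02). The part of these cell types in the subunit differences was not tested. In p21-/- villi none of 74 passed and 3 had an unadjusted p under 0.05 (all genes 0.0255% and 0.0128%).

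The genotype comparisons share the wild-type arrays, and the diet comparisons share the Ain76A arrays. NWD1 against Ain76A gave no call among 77 subunit genes in crypts, with 2 at an unadjusted p under 0.05, and none among 74 in villi, with 0 at that p. Over all genes 0% were called in either direction in crypts, where 312 genes had an unadjusted p under 0.05, and 0.045% and 0.0113% were called higher and lower in villi.

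On NWD2 a single subunit gene was called in crypts of 74 tested, Cox7a1, beside 5.22% of all genes higher and 3.36% lower. Its crypts read 11.60, 12.46, 12.72 and 12.52 on NWD2 and 11.02, 11.70, 10.86 and 10.84 on Ain76A. The lowest NWD2 array fell below the highest Ain76A array, and the difference was 1.22 ± 0.27 (adjusted p = 0.0036). The call stood in 8 of 8 fits that left out an array and in 9 of 9 other alternatives. NWD1 crypts lay between 11.25 and 12.20, higher than Ain76A by 0.70 without a call (adjusted p = 1). Enterocyte genes moved with it on NWD2, where 10 of 13 were called higher in crypts with a median of 1.35, and 4 of 14 genes of dividing cells were called lower. The enterocyte sum on crypt arrays was 18.61 to 19.18 on NWD2 and 17.30 to 18.22 on Ain76A. Its part in the Cox7a1 difference was not tested. Cycs rose by 0.60 and the cycle enzyme Ogdh by 0.57 in the same crypts, both called. In NWD2 villi no subunit gene of 75 passed and 1 had an unadjusted p under 0.05 (all genes 0.0938% and 0.305%).

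Wild-type mice on Ain76A at 1 year and at 3 months belong to different arms, so age and arm cannot be told apart. In villi 7 of 74 subunit genes were called higher at 1 year and 1 lower, beside 6.58% and 9.75% of all genes. Those higher were Ndufab1 (1.01 ± 0.25, adjusted p = 0.00465), Ndufb8 (0.93, 0.00418), Sdhc (0.92, 0.00367), Ndufb5 (0.82, 0.0193), Ndufb9 (0.63, 0.0135), Atp5c1 (0.60, 0.0357) and Ndufa9 (0.59, 0.0495). Sdhc read 12.97, 13.14, 13.25 and 13.20 at 1 year and 12.24, 12.21, 11.96 and 12.48 at 3 months, with no overlap, while its other probe set gave -0.31 without a call. Uqcr10 was the gene that was lower, at 12.26, 12.22, 12.46 and 12.41 against 12.96, 13.48, 13.32 and 13.27. That difference was -0.92 ± 0.21 (adjusted p = 0.0023), its other probe sets gave -0.66 and -0.78 (adjusted p = 0.0275 and 0.0167 among all probe sets), and it was -0.58 (adjusted p = 0.0661) with the deposited scaling. Without wild-type villus array 1 or 3 the total fell to 4. Lymphocyte genes changed in the same comparison, as 11 of 11 were called lower at 1 year in villi. Their part in the subunit differences was not tested.

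In crypts of the same groups 3 of 73 were called higher at 1 year and 1 lower (all genes 6.32% and 4.94%). These were Ndufa4 (1.05 ± 0.31, adjusted p = 0.022), Ndufb2 (0.81, 0.0306), Atp5e (0.74, 0.00896) and Ndufa2 (-0.54, 0.0199). None was called without wild-type crypt arrays 2 and 4, 1 was called without array 2 or array 4 alone, and 10 were called without array 1. Enterocyte genes moved in the same comparison, with 8 of 13 called lower at 1 year, 12 negative and a median of -0.82, and summed levels of 17.30 to 18.22 at 1 year and 17.75 to 19.02 at 3 months. Of 14 genes of dividing cells, 2 were called higher and none lower. The part of these cell types was not tested. Of the mitochondrial ribosomal proteins 15 of 76 were called higher there and none lower.

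**Figure D5:**
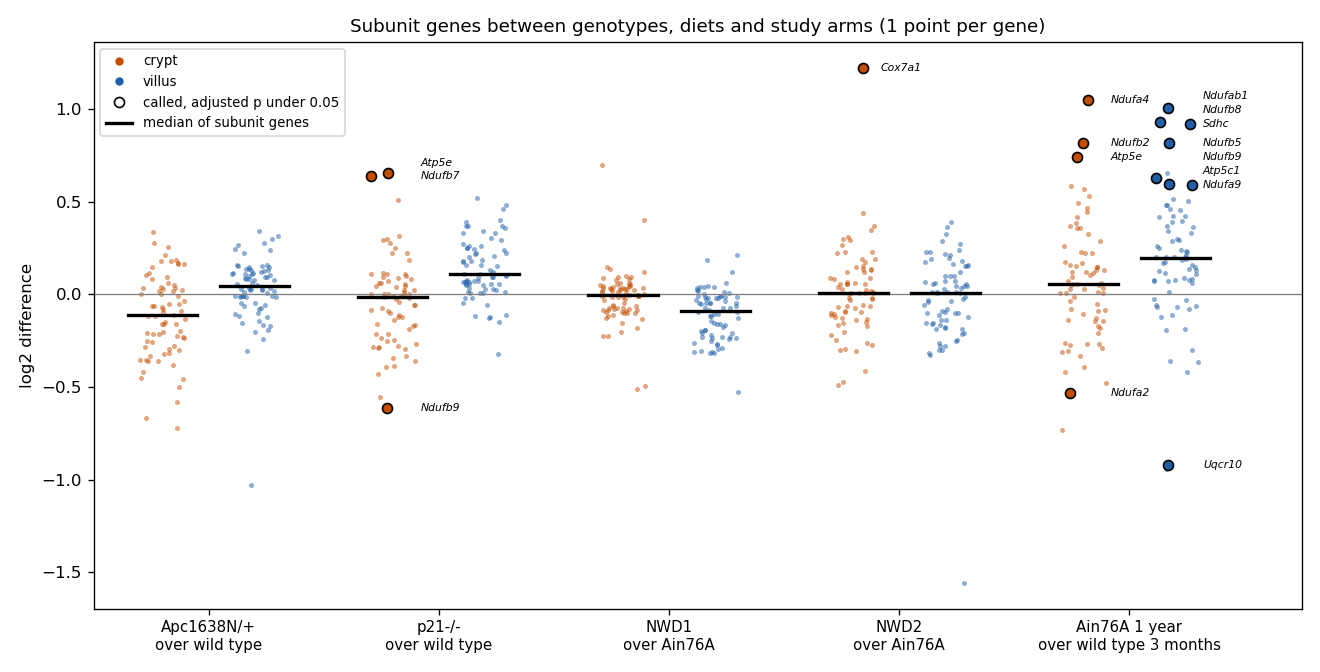
Log2 difference (vertical axis) of each subunit gene between genotypes, diets and study arms (horizontal axis), with crypts in orange, villi in blue, a bar at the median of the subunit genes and outlined points for called genes. Cox7a1 at 1.22 is the only outlined gene of the diet comparisons, and Uqcr10 at -0.92 the only outlined villus gene below 0.

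Whether the crypt-villus difference itself varied was tested with interaction terms. Relative to wild type, it changed in p21-/- for Ndufb9, by -0.98 ± 0.25 (adjusted p = 0.0368), beside 1.03% of all genes with a positive and 0.651% with a negative change. Ndufb9 was higher in crypts in wild type (0.54, adjusted p = 0.0128) and in villi in p21-/- (-0.44, adjusted p = 0.0392). The villi read 13.21, 13.89, 13.50 and 13.94 in wild type and 13.50, 14.13, 14.34 and 14.05 in p21-/-. The other probe set of Ndufb9 gave -1.16 (adjusted p = 0.0676 among all probe sets), and the call was lost in 10 of 16 fits without 1 array and without wild-type crypt arrays 2 and 4.

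Between Ain76A at 1 year and wild type at 3 months the term was 1.08 ± 0.29 for Uqcr10 (adjusted p = 0.0151) and -1.23 ± 0.38 for Cox7a1 (adjusted p = 0.0307), beside 6.48% and 5.37% of all genes. Both calls were lost without wild-type crypt arrays 2 and 4. The Uqcr10 term was lost without wild-type crypt array 2 (adjusted p = 0.0602) and with the deposited scaling (0.155), and its other probe sets gave 0.29 and 0.55 without a call. The Cox7a1 term was lost in 9 of 16 fits without 1 array. No subunit gene passed for Apc1638N/+ against wild type (all genes 0.0144% and 0%), for NWD1 against Ain76A (0% and 0%) or for NWD2 against Ain76A (0.48% and 0.0985%), with 3, 0 and 1 subunit genes at an unadjusted p under 0.05.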

How the data were processed

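The table used was the deposited log2 expression value per probe set and array, which the authors made with GCOS per the submitters' processing notes, and no version of it is given in the sources used here. Of the values 55.3% were blank, for a reason not given in the sources used here, and blanks were kept. The array number limits the precision. Measured probe sets numbered 14758 to 23296 per array. Because the highest trimmed mean of an array was 1.46 times the lowest (2% trimmed at each end), arrays were quantile normalized on the 8350 probe sets measured on all 47, with other values placed by monotone interpolation. The 64 control probe sets were left out, and a single gene symbol was attached to 34945 probe sets, several to 932 and none to 9160.

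A gene was kept with a value on at least 3 arrays and was represented by its probe set with the highest mean level. Tests used limma 3.58.1 in R 4.3.3 on 1 mean per group for the 12 groups, with a variance trend and Benjamini-Hochberg adjustment within each of 16 comparisons and 5 interactions. Each gene needed 3 measured arrays per group, a requirement set after the blanks were seen. The procedure was tested on simulated data. Members, lists and the rule for named genes were chosen with earlier results of these data known. That rule names up to 8 called genes with the largest rises and 8 with the largest falls per comparison (where none is called, the 3 smallest p-values in each direction), extremes of each complex, the Sdh genes, known isoforms with their partners, core subunits, and up to 4 genes of each pathway list. Other genes with values were chosen after those were seen.

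Alternatives were another scaling, filter, model or treatment of blanks, each array left out, and a block for equal array numbers of crypts and villi. Arrays of equal number in the groups compared all deviated together, with a correlation over 0.1 for each pair, in 2 of 16 comparisons. These were crypts against villi on Ain76A (0.133 to 0.29) and on NWD2 (0.285 to 0.487). In wild type the range was -0.266 to 0.087. The labels do not say that arrays of equal number share an animal.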

Additional observations from a re-analysis of the deposited data

Results flagged for a closer look

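In 11 of 268 groups of 4 arrays examined, 1 array stood apart from the rest by Dixon's criterion at the 95% level, and chance alone gives about 1 in 20.

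In Apc1638N/+ villi, array 3 was apart for Atp5g3 (14.80, others 15.49 to 15.55), for Atp5d (15.01, others 14.70 to 14.75) and for the median of the complex II genes (12.35, others 13.29 to 13.45). In Apc1638N/+ crypts, array 3 was apart for Ndufs8 (13.93, others 12.86 to 12.99). In p21-/- crypts, array 1 was apart for Atp5e (12.73, others 13.41 to 13.53) and array 4 for Sdhb (14.48, others 13.85 to 13.94). In p21-/- villi, array 1 was apart for Ndufab1 (11.46, others 12.71 to 12.89). In wild type, villus array 1 was apart for Atp5e (12.16, others 12.68 to 12.79), crypt array 1 for Cox7a1 (11.33, others 11.95 to 12.07) and crypt array 2 for the median of the complex III genes (13.58, others 13.76 to 13.77). In NWD1 crypts, array 1 was apart for Ndufa1 (14.19, others 14.10 to 14.11).

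Crypt-villus differences that changed between conditions by the interaction test were those of Ndufb9 between p21-/- and wild type (-0.98) and of Uqcr10 (1.08) and Cox7a1 (-1.23) between Ain76A at 1 year and wild type at 3 months.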

How the results depend on the processing

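Counts are of subunit genes called, and shares of all genes in the same fits are not given in this section. With only the compared groups in the model, they were 15 in wild type, 1 in Apc1638N/+, 8 in p21-/-, 34 on Ain76A, 36 on NWD1 for crypts against villi, 0 for p21-/- crypts, 6 for NWD2 crypts, 0 for Ain76A crypts at 1 year against 3 months, and 0 and 1 for the p21-/- and NWD2 interactions. With the deposited scaling they were 13 on Ain76A, 8 on NWD1, and 2 and 4 for the p21-/- and Ain76A interactions. The p21-/- interaction gave 0 with centred arrays, 3 with blanks set to the array's lowest value and 2 with every probe set tested on its own, and the Ain76A interaction 1 with blanks set so. Without wild-type crypt arrays 2 and 4 they were 1 for p21-/- crypts and 0 for Ain76A crypts at 1 year and for both interactions. The cause was not tested.

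Leaving out 1 array gave ranges of 17 to 29 in wild type, 12 to 17 in Apc1638N/+, 14 to 26 in p21-/-, 18 to 21 on Ain76A, 17 to 21 on NWD1 and 0 to 12 on NWD2 for crypts against villi. The ranges were 0 to 6 for Apc1638N/+ crypts, 0 to 3 for p21-/- crypts, 1 to 1 for NWD2 crypts, and 1 to 10 in crypts and 4 to 10 in villi for Ain76A at 1 year. Interactions ranged from 0 to 3 (p21-/-), 0 to 1 (NWD2) and 0 to 4 (Ain76A).

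Directions turned for Atp5b (0.043) and Atp5d (0.12) in p21-/- with centred arrays, and for Cox7a2 on NWD1 crypts with centred arrays (-0.11) and the deposited scaling (-0.044). Without wild-type crypt arrays 2 and 4 they turned in Apc1638N/+ crypts for Atp5e (-0.028) and Uqcr10 (-0.025) and in the Apc1638N/+ interaction for Atp5e (-0.047). In p21-/- villi, leaving out 1 array gave -0.301 to 0.091 for Sdhb and -0.324 to 0.071 for Sdhd, with the highest values without p21-/- villus array 1. No gene of these was called in both settings.

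With the replicate block on array numbers, the counts for crypts against villi were 27 in wild type, 18 in Apc1638N/+, 21 in p21-/-, 24 on Ain76A, 23 on NWD1 and 2 on NWD2, and 2 instead of 1 for the p21-/- interaction. On Ain76A, where arrays of equal number deviated together, Ndufa4 lost its call.

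Limits are the 3 or 4 arrays per group, blanks that keep genes such as Cox6b2 out of most tests, and probe sets that can differ. Examples are Sdhc and Uqcr10. Of subunit genes with several probe sets, 14 of 41 gave opposite signs for crypts against villi in wild type. The numbers were 15 of 40 in Apc1638N/+ and in p21-/-, 11 of 42 on Ain76A, 16 of 43 on NWD1 and 17 of 42 on NWD2. Probe sets of a gene were never called in opposite directions in these comparisons.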
